A study of Mus musculus with 8 samples.

Results

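The genes described here are the 7 regulators of G-protein signaling (RGS) Rgs1, Rgs2, Rgs3, Rgs10, Rgs14, Rgs16 and Rgs19. They were chosen by gene symbol, and each matched 1 of the 22520 genes and assembled transcripts in the table, which lists 22 RGS genes in all. In the libraries compared, mouse CD8+ T cells from the spleen were kept in culture with antibodies to CD3 and CD28 and with IL-2 for 6 days, and from day 3 they also received either DMSO, the solvent, or 40 µM DADA (diisopropylamine dichloroacetate, an inhibitor of the pyruvate dehydrogenase kinases). Each group has 4 bulk RNA-seq libraries harvested on day 6. The continuous stimulation is common to both groups and serves as a culture model of exhausted T cells, so no unstimulated cells enter the comparison. The labels tag the DMSO libraries as control and the DADA libraries as model under the heading genotype, but no allele is named. The labels give no strain, sex or age for the mice behind these cultures. The study describes the donors as wild-type, and its methods list male C57BL/6J mice among those bought. The labels also do not say whether the 4 replicates came from separate animals, so the p-values below measure the spread between these libraries, which may be partly technical.

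RGS proteins end G-protein signals. A receptor on the cell surface loads the alpha subunit of a G protein with GTP, the alpha subunit and the beta-gamma pair then act on enzymes and channels, and the RGS domain speeds the hydrolysis of that GTP. In T cells the family is known for setting how strongly chemokine receptors, which mostly use Gi proteins, drive migration, and several members are induced when the T cell receptor is engaged. Rgs1, Rgs2, Rgs3 and Rgs16 belong to the R4 family of small RGS proteins, Rgs10 and Rgs14 to the R12 family, and Rgs19 to the RZ family.

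The values are FPKM as the authors deposited them, that is, fragments scaled to transcript length and to how many fragments mapped in that library. Because of the scaling to length, levels of different genes can be set side by side. Fold changes were computed on log2(FPKM + 1), a scale that understates the change of genes with low FPKM, and were tested with limma, with Benjamini-Hochberg adjustment. The test covered 10666 genes, those with 1 FPKM or more in no fewer than 4 libraries. A gene was called when its adjusted p-value was under 0.05. For single genes, an exact permutation test (two-sided, 70 ways of splitting the libraries into groups) was added, where the smallest p is 0.0286.

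The promoters of a pair of members are shown because one belongs to the gene whose groups separated cleanly and the other to the gene that varied most within a group. They hold the 250 bases before the annotated transcription start, from RefSeq on GRCm38.p6, read on the strand of the gene. The Rgs16 window is chr1:153740103-153740352 on the plus strand and the Rgs2 window is chr1:144004150-144004399 on the minus strand. Capitals mark the core of a cAMP response element, TGACG, on either strand.
Rgs16: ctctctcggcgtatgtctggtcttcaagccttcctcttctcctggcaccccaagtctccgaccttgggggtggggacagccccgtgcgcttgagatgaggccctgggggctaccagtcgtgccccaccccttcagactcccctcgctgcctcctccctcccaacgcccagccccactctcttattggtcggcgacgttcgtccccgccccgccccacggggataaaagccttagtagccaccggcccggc
Rgs2: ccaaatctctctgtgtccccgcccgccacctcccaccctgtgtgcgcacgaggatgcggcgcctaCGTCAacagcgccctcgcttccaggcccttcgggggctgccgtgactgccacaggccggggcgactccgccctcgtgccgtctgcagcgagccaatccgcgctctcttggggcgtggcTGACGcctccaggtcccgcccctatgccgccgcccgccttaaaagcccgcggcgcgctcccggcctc
The Rgs2 window holds this core at 185 and at 67 bases before the start, whereas the Rgs16 window holds none. Of 32851 promoter windows of the same length, 17.8% hold at least 1. Neither window holds the full element TGACGTCA (1.55% of windows), the NFAT core GGAAA (55.6%), an AP-1 site TGANTCA (6.75%), an interferon-stimulated response element (2.98%) or a kappaB site (7.25%), each searched on both strands. Promoters were found for 5 of the 7 members, in 8 windows. None of the other 6 windows holds the cAMP response element core. The NFAT core does lie in windows of Rgs19 (at 187 bases before the start, and in a different window at 31 and 6) and of Rgs3 (at 73). These matches describe the letters in the windows, and the data hold no measurement of binding there.

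All 7 members reached 1 FPKM in all 8 libraries. DADA was accompanied by higher Rgs16 and Rgs1, by 14.8% and 17.4% of the DMSO mean, and the other 5 members were not called. These 2 of 7 members called compare with 66.2% of all genes tested, made up of 30.9% higher and 35.3% lower. The median log2 fold change was 0.04 for the 7 members and -0.02 for all genes tested, and the median size of the change, without its sign, was 0.09 and 0.21. For 6 of the 7 members the change was smaller than that of the median gene. In bulk RNA, fewer cells that express a gene and less of its RNA per cell cannot be told apart.

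**Figure D1:**
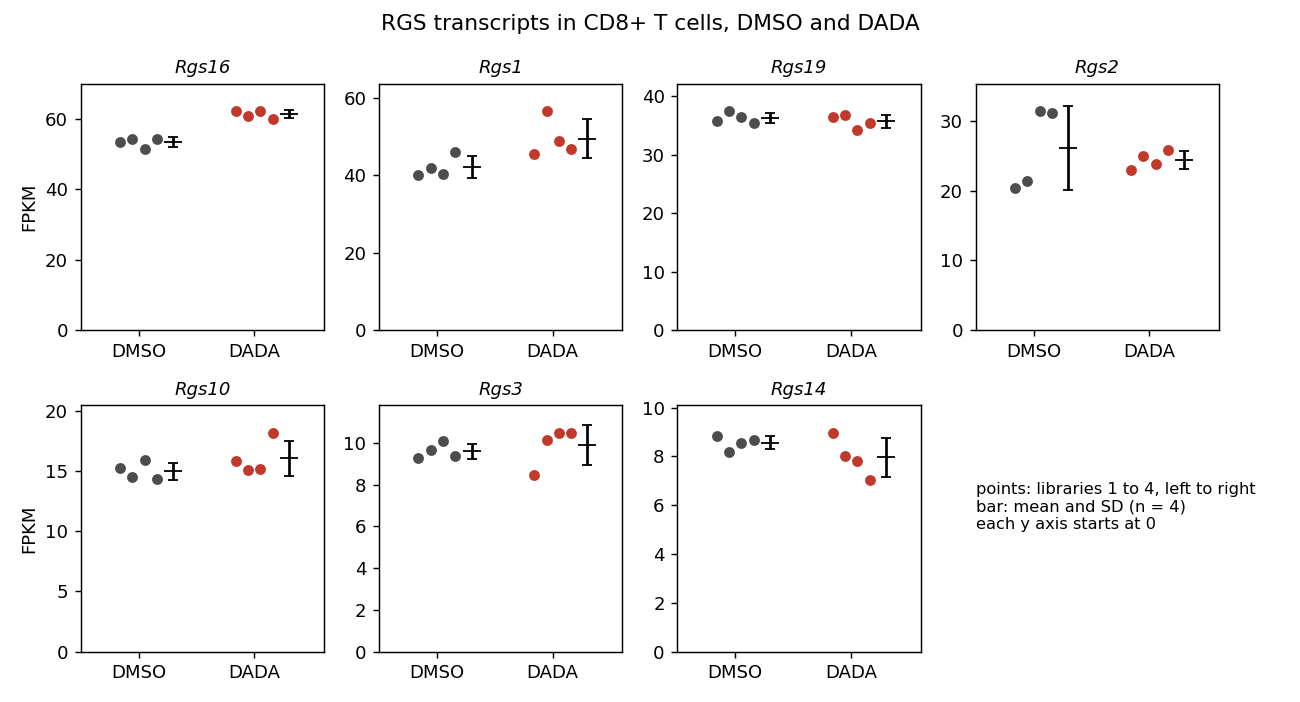
FPKM of the 7 RGS genes in each library, with 1 panel per gene and a y axis that starts at 0. Dots are libraries 1 to 4 of DMSO (dark) and DADA (red) from left to right, and the bar beside them is the mean with the SD (n = 4). The DADA libraries lie above all DMSO libraries for Rgs16, at 60.0 to 62.4 against 51.4 to 54.5 FPKM, while the groups overlap in every other panel.

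Among the R4 members, Rgs16 had the highest level of the family. It acts on alpha subunits of the Gi and Gq classes and is induced by activation in T cells. Rgs16 (ENSMUSG00000026475) stood at 53.6, 54.5, 51.4 and 54.4 FPKM in DMSO libraries 1 to 4 and at 62.2, 61.0, 62.4 and 60.0 FPKM in DADA libraries 1 to 4. Every DADA library was above every DMSO library, and the libraries of a group lay close together. The mean rose from 53.5 ± 1.43 to 61.4 ± 1.11 FPKM (SD, n = 4). The log2 fold change was 0.20 (SE 0.0262, 95% interval 0.14 to 0.25) with an adjusted p of 9.01e-05 in limma and an exact permutation p of 0.0286. Rgs16 was the only member whose groups did not overlap, 1 of 7, whereas 60.6% of all genes tested had no overlap and 28.4% had none with DADA higher. In the GENCODE M21 annotation, 236 of its 2339 exon bases (10.1%) are shared with Gm28513 on the opposite strand. The study's methods name a Multi-Stranded mRNA-Seq kit, while the labels name another kit. Whether fragments were counted by strand is not given in the sources used here, so fragments from those bases could belong to either gene.

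Rgs1 is known to dampen the response of lymphocytes to chemokines and ranked next in level. Rgs1 (ENSMUSG00000026358) had 40.2, 41.9, 40.4 and 46.2 FPKM with DMSO and 45.6, 56.7, 49.0 and 46.7 FPKM with DADA. The groups overlapped, with DMSO 4 above DADA 1, and 3 of the 4 DADA libraries exceeded the highest DMSO library, DADA 4 by only a small margin. DADA 2 was the highest library by a wide gap. The mean rose from 42.2 ± 2.78 to 49.5 ± 4.99 FPKM (SD, n = 4), with a log2 fold change of 0.22 (SE 0.0679, 95% interval 0.07 to 0.38) and an adjusted p of 0.0149 in limma. On its own, the difference of means had an exact permutation p of 0.0571 (n = 4 per group), a test that, unlike limma, borrows no spread from other genes. The adjusted p was 0.0410 at most when any 1 library was left out or another setting was used, and the log2 fold change then lay between 0.16 and 0.27.

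Rgs2 favours alpha subunits of the Gq class and is induced in many cells by signals that raise cAMP. Rgs2 (ENSMUSG00000026360) was at 20.4, 21.5, 31.5 and 31.2 FPKM with DMSO and at 23.0, 25.0, 23.8 and 25.9 FPKM with DADA. The DMSO libraries split into a low pair, 1 and 2, and a high pair, 3 and 4, and all 4 DADA libraries lay between the pairs. The means were 26.1 ± 6.03 and 24.4 ± 1.24 FPKM (SD, n = 4), a coefficient of variation of 23.1% with DMSO and 5.09% with DADA. The SD of Rgs2 within DMSO, on the log2 scale, was at percentile 99.3 of the 6267 genes whose mean was 10 FPKM or more. Its log2 fold change was -0.07 (SE 0.133, 95% interval -0.36 to 0.23) with an adjusted p of 0.674 in limma, and the sign turned to 0.03 without DMSO 3 and to 0.02 without DMSO 4. On the fold scale, this interval runs from 0.777 to 1.17.

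Rgs3, which exists in long and short forms and acts on Gi and Gq classes, was the lowest R4 member. Rgs3 (ENSMUSG00000059810) gave 9.28, 9.65, 10.1 and 9.38 FPKM with DMSO and 8.48, 10.1, 10.5 and 10.5 FPKM with DADA. DADA 1 was below all DMSO libraries and the other 3 DADA libraries were above the highest of them. The means of 9.60 ± 0.364 and 9.89 ± 0.955 FPKM (SD, n = 4) differed by a log2 fold change of 0.04 (SE 0.0631, 95% interval -0.11 to 0.18), with an adjusted p of 0.638 in limma. GENCODE M21 lists 17 transcripts for Rgs3 against 1 for Rgs16, and the table gives 1 value per gene, so its forms were not told apart.

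The R12 members were lower than most of the R4 members and neither was called. Rgs10 is a small protein that acts on Gi alpha subunits. Rgs10 (ENSMUSG00000030844) had 15.2, 14.5, 15.9 and 14.3 FPKM with DMSO and 15.8, 15.1, 15.2 and 18.2 FPKM with DADA. DADA 4 stood above the rest and the other 3 DADA libraries fell within the DMSO range. The log2 fold change was 0.09 (SE 0.0589, 95% interval -0.04 to 0.22) with an adjusted p of 0.196 in limma, for means of 15.0 ± 0.713 and 16.1 ± 1.44 FPKM (SD, n = 4). Without DADA 4 it was 0.03.

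Rgs14 carries, besides its RGS domain, Ras-binding domains and a motif that holds Gi alpha subunits in the GDP-bound state. Rgs14 (ENSMUSG00000052087) was at 8.82, 8.18, 8.56 and 8.69 FPKM with DMSO and at 8.97, 8.03, 7.81 and 7.05 FPKM with DADA. DADA 1 was the highest of all 8 libraries and the other 3 DADA libraries were below all DMSO libraries. The log2 fold change was -0.10 (SE 0.0615, 95% interval -0.23 to 0.04) with an adjusted p of 0.188 in limma, for means of 8.56 ± 0.278 and 7.96 ± 0.791 FPKM (SD, n = 4). Without DADA 1 it was -0.15 and Rgs14 was called, at an adjusted p of 0.0319 in limma. The same library was the lowest of the DADA libraries for Rgs3 and Rgs1.

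Rgs19, also named GAIP, was found as a partner of the Gi alpha subunit encoded by Gnai3. Rgs19 (ENSMUSG00000002458) was at 35.8, 37.5, 36.6 and 35.5 FPKM with DMSO and at 36.4, 36.7, 34.3 and 35.5 FPKM with DADA. The groups lay on top of each other. Its log2 fold change of -0.02 (SE 0.0299, 95% interval -0.09 to 0.04) had an adjusted p of 0.513 in limma, and the sign turned to 0.0081 when each library was rescaled to the same total (TPM). The interval on the fold scale, 0.940 to 1.03, was the narrowest among the members that were not called, for means of 36.3 ± 0.902 and 35.7 ± 1.07 FPKM (SD, n = 4).

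**Figure D2:**
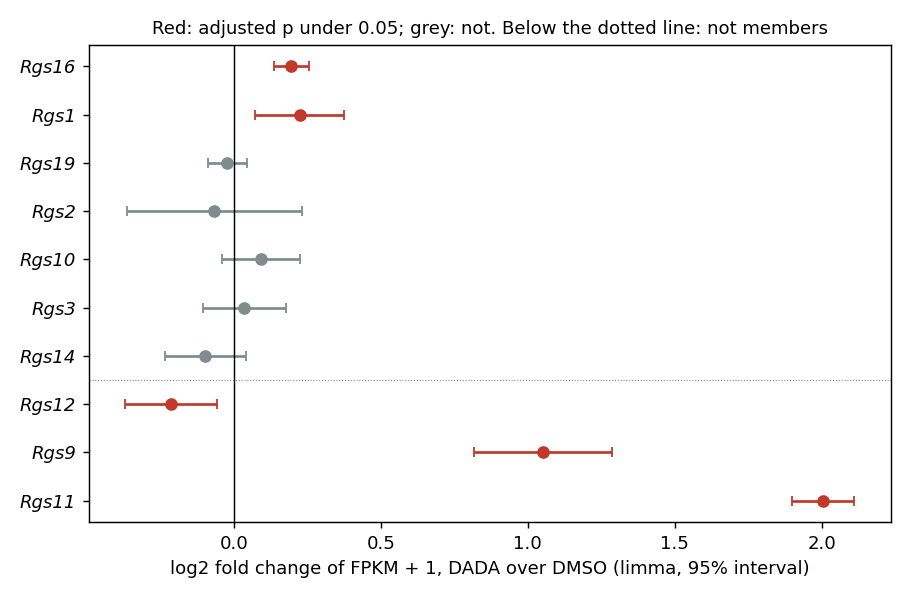
Log2 fold change of FPKM + 1, DADA over DMSO, for the 7 RGS genes and, below the dotted line, for the 3 other RGS genes that passed the filter, with 95% intervals from limma. Red marks an adjusted p under 0.05. The 7 genes lie between -0.10 and 0.22, and Rgs11 lies at 2.01.

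The order of the members by mean level was the same in both groups, with Rgs16 first, then Rgs1, Rgs19, Rgs2, Rgs10, Rgs3 and Rgs14. It held in 7 of the 8 libraries taken singly, and in DADA 1 Rgs14 was above Rgs3. Neighbours in the order did not overlap between libraries of a group, other than Rgs3 and Rgs14 with DADA. The difference between this pair was not tested. The steps between neighbours were modest for the upper members, with Rgs16 at 1.27 times Rgs1 with DMSO and 1.24 times with DADA, and widest between Rgs2 and Rgs10 with DMSO, at 1.74 times. The 7 genes together came to 183 to 199.7 FPKM with DMSO and to 200.5 to 213 FPKM with DADA. As a share of that sum, Rgs16 had 28.0% ± 1.36 with DMSO and 30.0% ± 1.10 with DADA, Rgs1 had 22.0% ± 0.978 and 24.1% ± 1.80, and Rgs19 had 19.0% ± 0.966 and 17.4% ± 0.517 (SD, n = 4). Rgs2 made up 13.6% ± 2.69 and 11.9% ± 0.524, so that Rgs16 and Rgs1 took the largest shares in both groups.

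The other 15 RGS genes of the table were mostly silent. In 12 of them no library reached 1 FPKM, and Rgs4, Rgs7, Rgs13, Rgs17 and Rgs21 were listed at 0 in every library. The exception by size was Rgs11, a member of the R7 family that is best known from retinal neurons. Rgs11 (ENSMUSG00000024186) had 3.83, 4.12, 4.05 and 3.51 FPKM with DMSO and 18.9, 18.8, 18.7 and 17.9 FPKM with DADA. By its mean it thus passed from below all 7 members to between Rgs10 and Rgs2. In DADA 4 alone it was below Rgs10, at 17.9 against 18.2 FPKM. The mean rose 4.79-fold, from 3.88 ± 0.274 to 18.6 ± 0.488 FPKM (SD, n = 4), with a log2 fold change of 2.01 (SE 0.0471) and an adjusted p of 2.67e-10 in limma. A log2 fold change of at least 1 in size was found for 4.09% of the genes tested, and Rgs11 ranked 91 by size among them. Its share of the summed FPKM of all 22 RGS genes went from 1.97% to 8.18%, and that of the 7 members together from 96.9% to 90.2%. In GENCODE M21, 138 of its 4206 exon bases (3.28%) lie opposite Arhgdig, which had 11.1 and 11.3 FPKM in the 2 groups.

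Rgs9, a further R7 gene known from photoreceptors and striatum, showed a difference in the same direction at a low level. Rgs9 (ENSMUSG00000020599) was at 0.218, 0.139, 0.275 and 0.443 FPKM with DMSO and at 1.84, 1.86, 1.20 and 1.64 FPKM with DADA. It passed the filter only through the DADA libraries, so that it had to differ in order to be tested. Its log2 fold change was 1.05 (adjusted p of 1.07e-05 in limma), and 2.28 with a pseudocount of 0.1. Proteins of the R7 family are stable only in a complex with the beta subunit encoded by Gnb5, which was looked at for that reason after its values were seen. Gnb5 had 3.10, 3.79, 3.07 and 3.90 FPKM with DMSO and 5.26, 5.11, 5.38 and 4.40 FPKM with DADA (log2 fold change 0.44, adjusted p of 7.99e-04 in limma). Rgs6 and Rgs7, the remaining R7 genes, were at or near 0.

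Rgs12, the relative of Rgs10 and Rgs14 in the R12 family, was low in both groups. It had 1.74, 1.61, 1.50 and 1.37 FPKM with DMSO and 1.24, 1.24, 1.33 and 1.02 FPKM with DADA, which is lower in each DADA library than in each DMSO library. Its log2 fold change of -0.21 had an adjusted p of 0.0210 in limma, and the call was lost without DMSO 1, DMSO 2 or DADA 4, at adjusted p-values of 0.0584, 0.0508 and 0.0663. Rgs8, an R4 gene chosen after its values were seen, stayed below the filter, at 0.257, 0.492, 0.332 and 0.403 FPKM with DMSO and 0.804, 0.604, 0.757 and 0.763 FPKM with DADA. Tested with no filter, the log2 fold change was 0.34 (adjusted p of 0.00160 in limma).

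**Figure D3:**
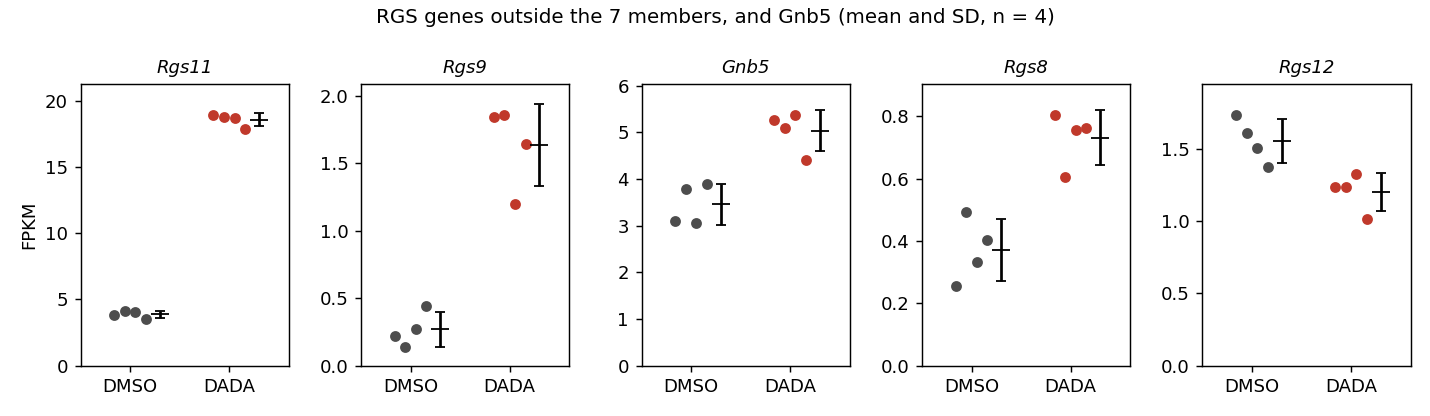
FPKM of Rgs11, Rgs9, Gnb5, Rgs8 and Rgs12 in each library, with 1 panel per gene and a y axis that starts at 0. Dots are libraries 1 to 4 of DMSO (dark) and DADA (red) from left to right, and bars are the mean with the SD (n = 4). In each panel the groups are apart, with DADA higher for all but Rgs12, and only Rgs11 exceeds 6 FPKM.

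Around the members, the genes of the same signaling route were counted in 9 lists with 123 genes, of which 79 were tested. Of these, 62 (78.5%) were called, 42 higher and 20 lower, and the median change of those tested, without its sign, was 0.32. Of the 79, 3 passed the filter only through the DADA libraries and so had to differ, and without them 39 of 76 were higher and 20 lower. This compares with 2 of the 7 RGS members and with 66.2% of all genes tested (30.9% higher and 35.3% lower). The median log2 fold change of a list lay between -0.16, for the Gs-coupled receptors, and 0.73, for the Gi-coupled chemoattractant receptors, and was 0.20 for the alpha subunits, 0.25 for the beta and gamma subunits and 0.03 for the cAMP enzymes.

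On the receptor side, the Gi-coupled chemoattractant receptors, whose signals RGS proteins shorten, had 13 of 15 tested genes higher and none lower. Over all genes tested, 30.9% were higher and 35.3% lower. Ccr1 and Ccr3, named here after their values were seen, passed the filter only through the DADA libraries, and without them 11 of 13 were higher, with a median log2 fold change of 0.73. With no filter, 16 of 27 were higher and 1 lower, Ccr8, which went from 1.06 to 0.345 FPKM (log2 fold change -0.61, adjusted p of 0.00116 in limma). With quantile normalization 1 was lower, Cxcr3 (log2 fold change -0.26 under that setting, against -0.15 without a call). Cxcr4, the receptor for CXCL12, stood out with 3.77 ± 0.405 FPKM with DMSO and 36.9 ± 0.663 FPKM with DADA (log2 fold change 2.99, adjusted p of 5.90e-11 in limma). P2ry14, a receptor for UDP-sugars, rose by a log2 fold change of 1.35. The Gs-coupled receptors, which raise cAMP, had 2 of 6 higher and 3 lower. The proton-sensing receptor gene Gpr65 rose from 60.1 to 95.8 FPKM. Of the prostaglandin receptor genes, Ptger2 rose by 0.15 on the log2 scale, and Ptgir and Ptger4 fell by 0.58 and 0.31.

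Of the alpha subunits, 5 of 9 were higher and 3 lower, against 30.9% and 35.3% of all genes tested. This list is not limited to the Gi and Gq classes named above for the members. The most abundant Gi subunit, Gnai2, chosen after its values were seen, had 139, 146, 140 and 139 FPKM with DMSO and 166, 164, 161 and 159 FPKM with DADA (log2 fold change 0.20, adjusted p of 3.70e-05 in limma). Gnai3, the partner of Rgs19, went the other way, from 86.1 ± 2.42 to 75.7 ± 1.08 FPKM, with a log2 fold change of -0.18. Gna13 went from 34.7 ± 0.549 to 72.0 ± 1.52 FPKM (log2 fold change 1.03), Gnal had 1.11, and Gna12 had -0.32. Beta and gamma subunits showed 5 of 9 higher and 2 lower, with Gngt2 at 0.93, Gng12 at 0.66, Gng10 at -0.42 and Gnb1 at -0.25 on the log2 scale.

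Genes of the remaining lists of regulators and related proteins moved in both directions. Receptor kinases and arrestins, which switch off the receptor instead of the G protein, had 1 of 5 tested genes higher and 2 lower. That is 60% called, against 66.2% of all genes tested. Arrb1, encoding beta-arrestin 1, went from 4.91 ± 0.580 to 36.8 ± 0.298 FPKM (log2 fold change 2.68, adjusted p of 2.11e-10 in limma), while Grk6 and Grk2, the main receptor kinases of lymphocytes, fell by 0.32 and 0.24 on the log2 scale. Proteins with an RGS-like domain, among them sorting nexins, had 4 of 8 higher and none lower. With 50% called, this list was below the 66.2% of all genes tested, of which 30.9% were higher. Snx25 stood at 0.57 and Arhgef11, which passed the filter only through the DADA libraries and so had to differ, at 0.83. Without Arhgef11, 3 of 7 were higher, and the median log2 fold change of this list was 0.0051 instead of 0.17. With quantile normalization, 1 of the 8 was lower. Among the other regulators of alpha subunits, Gpsm3 and Ric8a both had 0.15 and Ric8b had -0.28 on the log2 scale. The call of Gpsm3 (adjusted p of 0.0386 in limma) was lost under 7 alternatives, among them the omission of DMSO 1, DMSO 3, DMSO 4, DADA 1, DADA 2 or DADA 4.

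Downstream, the cAMP enzymes and subunits of protein kinase A had 6 of 15 higher and 7 lower. Over all genes tested, the shares were 30.9% and 35.3%. The phosphodiesterase genes Pde4a and Pde4b had log2 fold changes of 0.75 and 0.42, and Prkar2b and Pde8a had -0.55 and -0.40. Effectors of beta-gamma pairs and of Gq had 4 of 7 higher and 2 lower, with Prex1 at 0.51, Pik3r5 at 0.43, Dock2 at -0.18 and Elmo1 at -0.12 on the log2 scale. The call of Elmo1 was lost with TPM and with quantile normalization.

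**Figure D4:**
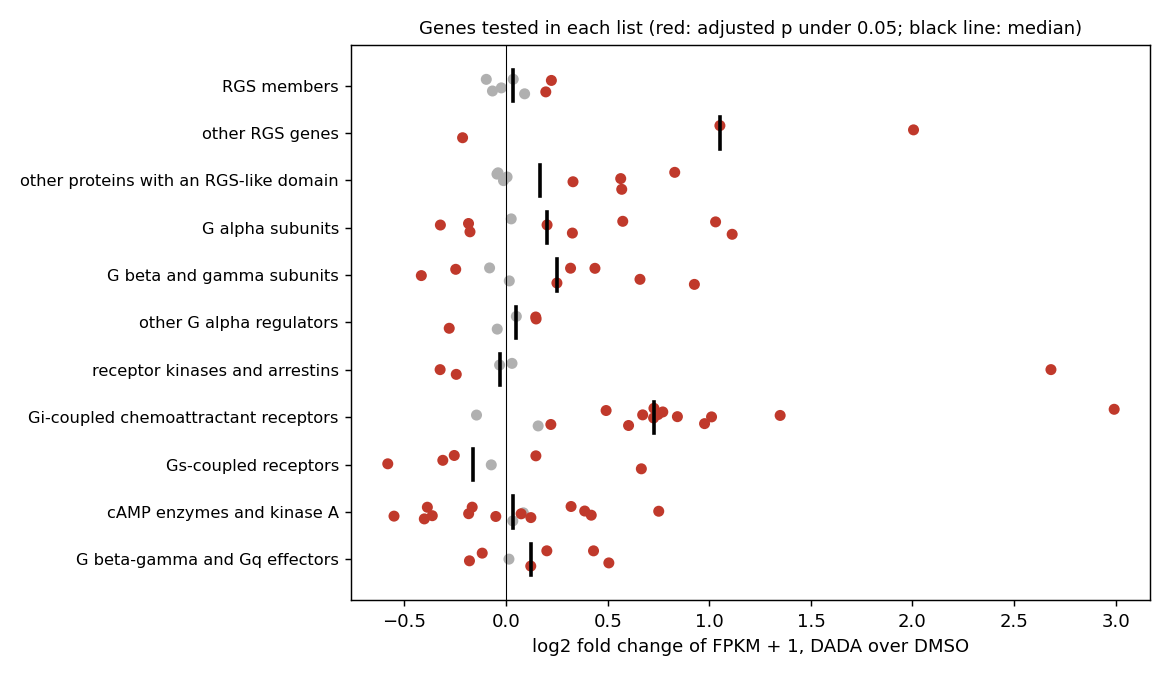
Log2 fold change of FPKM + 1, DADA over DMSO, for each tested gene (1 dot) of the RGS members, the other RGS genes and the 9 lists of the route, with the median of each list as a black line. Red dots have an adjusted p under 0.05 and grey dots do not. The 7 members lie around 0, the Gi-coupled receptors have a median of 0.73, and Arrb1 and Cxcr4 lie at 2.68 and 2.99.

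The genes whose levels followed a member most closely over the 8 libraries were listed for the members with the largest rise and the largest fall on the log2 scale. For Rgs1 they were Setmar (Pearson's r = 0.965), Entpd4b (0.963) and Tor3a (0.955), each highest in DADA 2 like Rgs1. For Rgs14 they were Arid1a (0.926), Adck2 (0.915) and Pcdhgc3 (0.908), with Arid1a at 23.5 FPKM in DADA 4, its lowest library as for Rgs14. These correlations describe 8 libraries that share the split into 2 groups, and the genes are the best of all tested, so they carry no test.

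The label of the cells was checked on marker genes. The 7 markers of CD8+ T cells were all present, and all 7 were called higher with DADA, against 30.9% of all genes tested. Their log2 fold changes ran from 0.08 for Cd3g, whose groups overlapped, to 0.75 for Cd2. The summed level of these markers was 1026 to 1058 FPKM with DMSO and 1268 to 1302 FPKM with DADA. Their part in the results for the RGS genes was not tested. No marker of myeloid, CD4+ T, NK or erythroid cells and platelets passed the filter, with highest values of 0.412, 0.411, 0.249 and 0.544 FPKM. Tested with no filter, Foxp3, Klrb1c and Itgam were called higher with DADA and Cd40lg lower. Their adjusted p-values in limma were 4.84e-04, 5.07e-04, 0.0428 and 0.0130. Among the B cell markers, Pax5 was at 0 in every library, Cd79b was the only one tested, at 3.08 and 2.69 FPKM without a call, and Ebf1 was at 0.255 and 1.10 FPKM. Library totals were 450473 to 456939 FPKM with DMSO and 438299 to 449480 FPKM with DADA. From the steps between low values, the depth was put at 13660000 to 16620000 fragments with DMSO and 15180000 to 18660000 with DADA, which gives the 7 members a counting error per kilobase of transcript between 3.26% for Rgs16 and 8.64% for Rgs14, and Rgs9 one of 24.7%. This estimate is rough, since 47.7% to 56.4% of the low values lay within 0.1 of a whole fragment where chance gives 20%, and it covers counting error only.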

How the data were processed

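The 8 bulk RNA-seq libraries came from splenic CD8+ T cells of mice, 4 with DMSO and 4 with 40 µM DADA, and were grouped by their titles. The deposited values are FPKM that the authors computed for each gene in each library. The submitters' processing notes name CASAVA 1.8.2, FastQC 0.11.9, HISAT2 2.0.5, StringTie 1.3.3, Picard 1.41 and SAMtools 0.1.18, and list GRCm39 beside a human build. The counting strand is not given in the sources used here. The table has no coordinates or read counts, so no count test was run.

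Values were tested as log2(FPKM + 1) with limma 3.58.1 in R 4.3.3 (eBayes with a mean-variance trend, 1 term for DADA, Benjamini-Hochberg adjustment) on 10666 genes with at least 1 FPKM in 4 or more libraries. Single genes were also tested with exact permutations in Python 3.11.15 (numpy 2.4.6, scipy 1.17.1, pandas 2.3.3), and figures used matplotlib 3.10.9. On simulated data with 10666 genes and the spread of each gene in the 8 libraries, the fit recovered 163 of 200 changed genes. Of its 167 calls, 4 were false. Far fewer genes were changed there than the 66.2% called in the data, and most of the changes were larger than those of the members. The count recovered is therefore no measure of how well changes of the members' size are found.

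The members and the gene lists were chosen with earlier results of these data known. All 7 members are given in full, other RGS genes in full where they passed the filter, from each list up to 2 called genes that rose most and 2 that fell most, and the 3 genes most correlated with the members that rose and fell most. Genes named outside this rule are marked or are named as markers or exceptions. The alternatives were a pseudocount of 0.1, no filter, a mean of at least 5 FPKM, TPM, median-ratio and quantile scaling, no trend, a replicate block, each library left out, and no assembled transcripts.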

Additional observations from a re-analysis of the deposited data

Results flagged for a closer look

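Of 114 groups of 4 values checked with Dixon's test for a single value far from the other 3, 8 were past the 95% limit, where chance gives about 1 in 20, or 5.7. Dixon's ratio, the gap of that value divided by the range of its group, is given for each. For the share of Rgs14 in the summed FPKM of the 7 members, the ratio was 0.882 with DMSO, with DMSO 1 at 4.81% and the others at 4.35% to 4.41%. For the sum of the 22 RGS genes it was 0.854 with DADA, with DADA 2, also the highest library for Rgs1, at 235 FPKM and the others at 223 to 225 FPKM. Among the genes of the route with DADA, it was 0.909 for Gna13, with DADA 3 at 74.2 FPKM and the others at 71.1 to 71.4 FPKM. It was 0.962 for Arrb1, with DADA 2 at 37.2 FPKM and the others at about 36.6 FPKM, and 0.873 for P2ry14, with DADA 4 at 13.2 FPKM and the others at 12.3 to 12.4 FPKM. With DMSO it was 0.852 for Ric8b, with DMSO 1 at 6.21 FPKM and the others at 6.78 to 6.88 FPKM, and 0.902 for Prkar2b, with DMSO 1 at 2.71 FPKM and the others at 1.98 to 2.05 FPKM. For Pik3r5 it was 0.942 with DMSO, with DMSO 2 at 16.3 FPKM and the others at 15.7 to 15.8 FPKM. None of these values lies in the range of the other group.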

How the results depend on the processing

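Rgs16 and Rgs1 were called and higher under all 17 alternatives, at log2 fold changes of 0.18 to 0.23 and 0.16 to 0.27, and no other member was called, except Rgs14 without DADA 1 (-0.15, adjusted p of 0.0319 in limma), which made 3 members called instead of 2. Without 1 library, the log2 fold change of Rgs14 lay between -0.15 and -0.047 and that of Rgs2 between -0.17 and 0.03, positive without DMSO 3 or DMSO 4. Rgs19 changed sign to 0.0081 with TPM and to 0.0048 with quantile normalization. As differences of means, Rgs19 had 0.453 with TPM and 0.125 with quantile normalization, Rgs1 had 18.5 and 8.29 with an exact permutation p of 0.0286 in both, Rgs2 lay between -3.61 and 0.0871 FPKM and Rgs16 between 7.22 and 8.37 FPKM without 1 library, where the exact permutation p cannot go below 0.0571. All genes called numbered 5741 (mean of at least 5 FPKM) to 7868 (no filter), genes of the 9 lists 44 to 71, and 42.5% to 51.6% of all calls were higher, against 46.7% in the analysis reported. With a mean of at least 5 FPKM, fewer genes were tested and 4 beta and gamma subunits, 7 Gi-coupled receptors and 1 other RGS gene were called. Without DADA 4, 1 other RGS gene was called. No closer likeness of libraries with the same replicate number was visible. Their deviations from the group means correlated at -0.120 to 0.0953, against -0.267 to 0.134 for libraries with different numbers. The fit with the replicate number as a block called 6995 genes. Among them were Rgs16 (log2 fold change 0.20) and Rgs1 (0.22), at adjusted p-values of 0.00118 and 0.0182 in limma. Rgs9, Arhgef11, Ccr1 and Ccr3 could not be tested without any 1 of the DADA libraries or with a mean of at least 5 FPKM, since they then no longer passed the filter, and low genes such as Rgs8 and Rgs9 are limited by depth.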

Other observations

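The split of the DMSO libraries for Rgs2 was also seen in other genes, which were looked for after that split was seen. They were picked as the most correlated with Rgs2 among all genes tested, so a like pattern follows from the choice. Piga, an enzyme of GPI anchor synthesis, correlated most closely with Rgs2 over the 8 libraries (Pearson's r = 0.933, no test), and stood at 15.8, 16.4, 17.6 and 17.4 FPKM in DMSO libraries 1 to 4. Cep15 (r = 0.915) and Mterf2 (r = 0.914) had the same order of low and high pairs, with Mterf2 at 7.06, 7.26, 8.21 and 8.12 FPKM. The 4 DADA libraries of Mterf2 lay between 7.07 and 7.35 FPKM. Rgs2 had the widest of these gaps.

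The genes closest to Rgs11 over the 8 libraries, also looked for after its values were seen, were Ndrg1 (r = 0.9996), Pld3 (0.9995) and Isg15 (0.9994), all of them higher with DADA. Ndrg1, a gene induced by hypoxia and by cell stress, stood at 22.2, 22.4, 22.4 and 20.6 FPKM with DMSO and at 123, 122, 122 and 120.2 FPKM with DADA. For both Rgs11 and Ndrg1, library 4 was the lowest of its group with DMSO and with DADA. The groups lie far apart for all of these genes, which by itself gives a correlation near 1 over the 8 libraries.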
